A study of Homo sapiens with 6 samples.

Results

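Laminin chain genes were read in A549 cells, a long-established human line from a lung adenocarcinoma, labelled wild type, across 2 treatments. The list named 7 chains, LAMA3, LAMA4, LAMA5, LAMB1, LAMB2, LAMB3 and LAMC1. Of these, 6 had a row among the 19876 genes of the deposited tables, and LAMA4 was not analysed here. All 6 passed the filter on low counts and were among the 13567 genes tested. LAMA2, LAMA1 and LAMC3 are laminin chains outside the list and are given where a class needs them. One group of 3 libraries came from cells cultured with phosphate-buffered saline (PBS) as the negative control, and the other group of 3 came from cells cultured with rhTR11B. TR11B abbreviates TNFRSF11B, the soluble decoy receptor osteoprotegerin; no label says what rhTR11B stands for, at which dose it was given or for how long. Both groups were kept in DMEM with fetal bovine serum. The labels call the libraries biological replicates of a single cell line without saying whether they were separate cultures, so each p-value below reflects only variation from library to library, possibly technical. In bulk RNA, fewer cells of a type and less RNA per cell cannot be told apart.

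Laminins are large secreted glycoproteins of basement membranes, the sheets of matrix beneath epithelia. Each is a cross-shaped trimer of an alpha, a beta and a gamma chain that assembles inside the cell through a long coiled coil, and a trimer is named by its chain numbers. The alpha chain carries globular domains at its end that are bound by integrins and dystroglycan on the cell surface. Laminin-332, which holds LAMA3 and LAMB3, anchors epithelia through hemidesmosomes, and laminin-511 and laminin-521 (LAMA5 with LAMB1 or LAMB2, and LAMC1) are widespread epithelial laminins of the adult, the lung included.

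Library totals ran from 36315751 to 38148838 counts, and laminin transcripts made up 0.138% to 0.153% of the counts with PBS and 0.163% to 0.192% with rhTR11B. The PBS libraries lay between -18.4 and -5.96 on the first principal component of all tested genes, which held 36.4% of the variance. The rhTR11B libraries lay at 2.66, 8.63 and, for replicate 3, which stood apart, 25.7. The 13 mitochondrially encoded genes took 6.63% to 7.71% of counts with PBS and 7.88% to 10.4% with rhTR11B, and cytosolic ribosomal protein genes took 4.60% to 4.74% and 3.55% to 4.21%. Of 6 epithelial markers, the keratins KRT7, KRT8 and KRT18 stood at 361 to 923 CPM in the group means, while EPCAM, KRT19 and CDH1, which define many epithelia, had 0 to 10 counts in a library. Of 7 fibroblast markers in the table, COL1A1 had group means of 3.07 and 4.73 CPM with PBS and rhTR11B, and the other 6 had group means of at most 0.399 CPM, with at most 0.724 CPM (LUM) in a library. Their summed level ran from 2.78 to 3.70 CPM with PBS and from 4.35 to 6.51 CPM with rhTR11B. Of 4 endothelial markers ESAM had group means of 158 and 186 CPM and the defining PECAM1, CDH5 and VWF at most 0.338 CPM in a library, so their sum (143 to 169 CPM with PBS, 176 to 206 with rhTR11B) was that of ESAM. The 2 blood markers summed to at most 0.589 CPM and the 4 smooth muscle markers to at most 1.34 CPM in any library. CPM are counts scaled to a common library size with TMM factors.

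The genes lie on 5 chromosomes (RefSeq, GRCh38.p14). LAMA3 spans 23689453 to 23955066 on chromosome 18, LAMA5 62309065 to 62367312 on chromosome 20, LAMB1 107923799 to 108003161 on chromosome 7 and LAMB2 49121114 to 49133050 on chromosome 3. LAMB3 (209614870 to 209652425) and LAMC1 (183023420 to 183145592) are both on chromosome 1. In GENCODE 29, exons of ADRM1 on the opposite strand share 244 bases, or 1.71%, of the exon bases of LAMA5, and exons of DLD share 70 bases, or 0.860%, of those of LAMB1. The antisense transcripts LAMA5-AS1, with 0 to 6 counts in a library, and AC005046.1, not analysed here, share 118 and 221 bases with LAMA5 and LAMB1. Since the strand setting of the counting is not given in the sources used here, reads in these overlaps cannot be told apart. Neither ADRM1 (log2 fold change -0.14) nor DLD (-0.11) was called.

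LAMA5 and LAMB3 were called higher with rhTR11B and LAMA3 was not, as described further on, so the 250 bases before a transcription start of these genes are shown (RefSeq, GRCh38.p14). The first belongs to LAMA5 (chr20:62367313-62367562, minus strand), the second to LAMA3 (chr18:23872770-23873019, plus strand) and the third to LAMB3 (chr1:209651375-209651624, minus strand). Capitals mark AP-1 motifs (TGANTCA) and GC boxes (GGGCGG), searched on both strands.
LAMA5: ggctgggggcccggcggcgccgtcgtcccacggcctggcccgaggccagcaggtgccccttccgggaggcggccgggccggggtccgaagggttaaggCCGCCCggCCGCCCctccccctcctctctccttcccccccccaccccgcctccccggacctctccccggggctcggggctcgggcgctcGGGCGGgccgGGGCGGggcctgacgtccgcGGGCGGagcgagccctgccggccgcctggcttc
LAMA3: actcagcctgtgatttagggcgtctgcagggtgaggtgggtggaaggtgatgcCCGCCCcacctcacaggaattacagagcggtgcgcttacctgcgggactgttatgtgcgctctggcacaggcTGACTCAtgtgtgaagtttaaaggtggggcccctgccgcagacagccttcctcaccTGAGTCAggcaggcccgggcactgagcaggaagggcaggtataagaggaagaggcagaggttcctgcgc
LAMB3: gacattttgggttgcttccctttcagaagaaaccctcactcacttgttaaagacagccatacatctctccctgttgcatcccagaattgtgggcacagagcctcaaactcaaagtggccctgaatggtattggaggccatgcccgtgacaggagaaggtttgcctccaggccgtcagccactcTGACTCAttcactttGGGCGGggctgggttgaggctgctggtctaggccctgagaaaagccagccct

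The LAMA3 window is that of an internal start, 183567 bases from the start of the gene, which gives the shorter transcript. It holds 2 AP-1 motifs, beginning 125 and 69 bases before the start, and 1 GC box. The LAMB3 window is the third of its 3 in RefSeq, 1051 bases from the start of the gene, with 1 AP-1 motif beginning 67 bases before the start and 1 GC box. The LAMA5 window holds 5 GC boxes and no AP-1 motif. Among the other windows of the listed chains, LAMB1 has 4 GC boxes, LAMC1 has 3, LAMB2 has 1 and the first 2 of LAMB3 have 1 each, none with an AP-1 motif. Of 35116 promoters of this length, 6.57% hold an AP-1 motif and 42.6% a GC box. G and C made up 82.8% of the LAMA5 window, 79.6% of that of LAMC1, 70.4% of that of LAMB1, 60.4% of that of LAMA3, 58.4% of that of LAMB2 and 54.0% of the LAMB3 window shown, against a median of 58.0% over all promoters. NF-kB motifs were found only before the first 2 starts of LAMB3, 3 in each window, in sequence that the windows share and with some of the motifs overlapping, against 9.96% of all promoters with at least 1, and none of the windows of listed chains held a TATA box (TATAAA). These are matches of letters in a window, not measured sites, and which starts A549 cells use was not measured.

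In the control cells the chains of laminin-521 and laminin-511 were far more abundant than LAMA3 and LAMB3, which laminin-332 holds. FPKM, the authors' unit per kilobase of gene length and scaled to the library total, allows chains to be compared. LAMC1, the gamma chain of most laminins, stood highest at 59.8, 58.4 and 58.0 FPKM in PBS replicates 1, 2 and 3. LAMB2, the beta chain of laminin-521, had 56.3, 47.9 and 51.7 FPKM, and LAMA5, the alpha chain of both, had 45.1, 38.1 and 40.8 FPKM. LAMB1, the beta chain of laminin-511, followed with 21.1, 21.0 and 20.4 FPKM. LAMB3 and LAMA3 were lower still: LAMB3 had 5.46, 5.09 and 5.58 FPKM, and LAMA3 2.73, 2.38 and 2.47 FPKM. This order held in each of the 6 libraries. Among neighbours in it, the ranges of LAMC1 and LAMB2 overlapped between libraries with rhTR11B and not with PBS. No other neighbours from LAMB2 down to LAMA2 overlapped within a group in FPKM. Per kilobase of its shorter transcript, taken up further on, LAMA3 ran from 4.75 to 5.46 with PBS. That overlaps the PBS range of LAMB3, 5.09 to 5.58 FPKM. LAMA2, the alpha chain of muscle laminin, had 0.0667 ± 0.0102 FPKM (SD, n = 3), LAMA1 had 0 to 5 counts in a library and LAMC3 0 or 1.

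**Figure D1:**
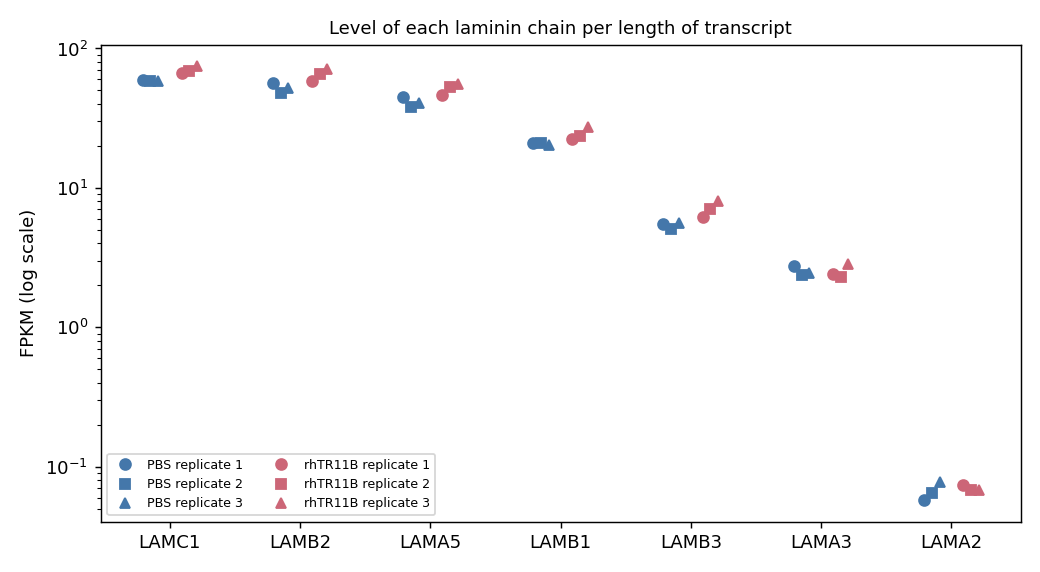
FPKM on a log scale for 7 laminin chains, with a point for each library (blue PBS, red rhTR11B; circle, square and triangle for replicates 1, 2 and 3). LAMC1, LAMB2, LAMA5 and LAMB1 lie above 20 FPKM in every library, LAMB3 and LAMA3 lie at 2.31 FPKM or above and below LAMB1, and LAMA2 reaches at most 0.0777 FPKM.

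Among the alpha chains LAMA5, and among the beta chains LAMB2 and LAMB1, made up nearly all of the level per length. LAMA5 was 94.1% ± 0.0877 of the summed FPKM of the 4 measured alpha chains with PBS (SD, n = 3) and LAMA3 5.75% ± 0.0932. Among beta chains LAMB2 held 66.4% ± 1.62, LAMB1 26.7% ± 1.51 and LAMB3 6.89% ± 0.299. The classes as sums stood at 43.9 ± 3.70 FPKM for alpha and 78.2 ± 4.46 FPKM for beta chains with PBS. The alpha sum leaves out LAMA4. The alpha shares also rest on the LAMA3 length behind the FPKM. Per kilobase of the shorter transcript, LAMA3 would stand at 5.04 rather than 2.53 with PBS, which would raise its share and lower that of LAMA5.

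With rhTR11B, 4 of the 6 listed chains rose and none fell, against 2.92% of all tested genes called higher (396 of 13567) and 0.678% called lower. Of all tested genes 3.6% were called in either direction. LAMA5, LAMB2, LAMB3 and LAMC1 passed edgeR's quasi-likelihood test at a Benjamini-Hochberg adjusted p under 0.05, and LAMB1 and LAMA3 did not. The rises were small, from 1.21-fold to 1.34-fold. The median log2 fold change of the 6 chains was 0.31, against 0.00 over all tested genes. The rhTR11B libraries lay wholly above the PBS libraries for 5 of the 6 chains, against 15.1% of tested genes.

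LAMA5, the alpha chain of laminin-511 and laminin-521, had 519, 436 and 472 CPM in PBS replicates 1, 2 and 3 and 543, 608 and 660 CPM in rhTR11B replicates 1, 2 and 3. Its groups did not overlap, with PBS replicate 1 and rhTR11B replicate 1 closest to each other. The mean went from 476 ± 41.8 to 603 ± 58.7 CPM (SD, n = 3 per group), 1.27-fold with a 95% interval of 1.14 to 1.42 (log2 fold change 0.34, SE 0.08, edgeR adjusted p = 0.0239). LAMA3, the alpha chain of laminin-332, had 30.8, 26.6 and 28.0 CPM with PBS and 27.5, 25.9 and 33.0 CPM with rhTR11B. Both its highest and its lowest value came from rhTR11B libraries, and the groups overlapped. Its log2 fold change was 0.02 (SE 0.09, edgeR adjusted p = 0.917), and the interval of the fold, 0.891 to 1.15, leaves room for a change in either direction. Its sign also turned with the setting: the log2 value was -0.09 without rhTR11B replicate 3, -0.03 without PBS replicate 2 and -0.02 with offsets for gene length. LAMA2 did not pass either (log2 fold change 0.08, SE 0.27, adjusted p = 0.882).

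Among the beta chains, LAMB2 had 320, 270 and 295 CPM with PBS and 336, 371 and 414 CPM with rhTR11B. The groups did not overlap, and the order of libraries was that of LAMA5. The rise was 1.27-fold (interval 1.13 to 1.42; log2 fold change 0.34, SE 0.08, edgeR adjusted p = 0.0241). LAMB3, the beta chain of laminin-332, had 24.6, 22.8 and 25.3 CPM with PBS and 28.4, 31.8 and 36.9 CPM with rhTR11B. This was the largest change among the listed chains, 1.34-fold (interval 1.17 to 1.52; log2 fold change 0.42, SE 0.09, edgeR adjusted p = 0.0211). LAMB1, the beta chain of laminin-511, had 136, 135 and 133 CPM with PBS and 147, 151 and 180 CPM with rhTR11B. Its groups did not overlap either, but rhTR11B replicate 3 stood well above replicates 1 and 2, and the chain missed the threshold (1.18-fold, interval 1.07 to 1.31, log2 fold change 0.24, SE 0.07, edgeR adjusted p = 0.0565). LAMB1 passed with the Wald test of DESeq2 (adjusted p = 0.0232), and without rhTR11B replicate 3 its log2 fold change was 0.15 (edgeR adjusted p = 0.106).

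The gamma chain LAMC1 had 471, 457 and 460 CPM with PBS and 532, 544 and 602 CPM with rhTR11B. Its PBS libraries lay close together, and the rise was 1.21-fold (interval 1.10 to 1.32; log2 fold change 0.27, SE 0.06, edgeR adjusted p = 0.0257). LAMC3 was too low to test.

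**Figure D2:**
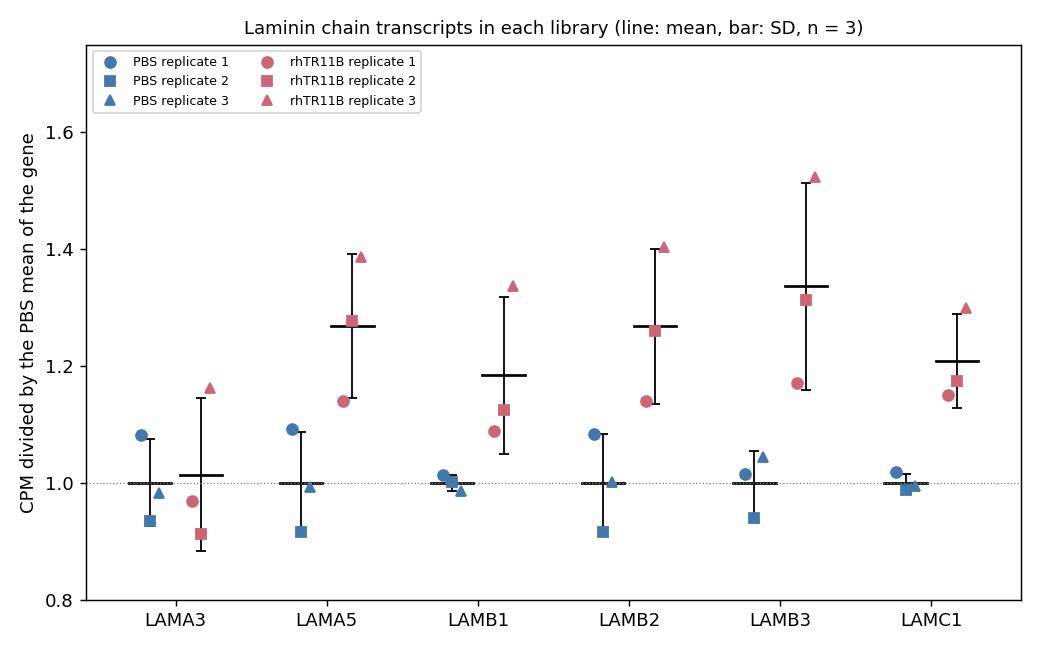
CPM of each library divided by the PBS mean of that gene, for the 6 listed laminin chains (blue PBS, red rhTR11B; circle, square and triangle for replicates 1, 2 and 3; line, mean; bar, SD, n = 3). All red points lie above all blue points except for LAMA3, and rhTR11B replicate 3 is the highest point of every chain.

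The calls depended on the control libraries. Without PBS replicate 2 or without PBS replicate 3, 0 of the 6 listed chains passed edgeR's test, with 5 at an unadjusted p under 0.05 in both fits; the adjusted p of the 4 called chains then ran from 0.161 to 0.182 and from 0.130 to 0.160. In those fits 23 and 12 genes of the whole table passed, against 488 with all libraries, so few genes of any kind were called. The median log2 fold change of the 6 chains was 0.27 and 0.30 there and 0.24 without rhTR11B replicate 3, where the same 4 chains passed. LAMC1 alone was lost without PBS replicate 1 (adjusted p = 0.0586). With limma on log2(FPKM + 1) and a mean FPKM of at least 1, 0 of the 6 chains passed (5 at an unadjusted p under 0.05; adjusted p of the 4 from 0.0710 to 0.0802), with 83 genes called in all.

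Read by trimer, all 3 chains of laminin-521 rose, LAMA5, LAMB2 and LAMC1. Of laminin-511, LAMA5 and LAMC1 rose and LAMB1 did not pass. LAMB1 had the lowest level per length of its chains in each library, 21.1, 21.0 and 20.4 FPKM with PBS and 22.4, 23.5 and 27.2 FPKM with rhTR11B. Of the chains of laminin-332 given here, LAMB3 rose and LAMA3 did not pass. LAMA3 was the lowest chain of laminin-311 and laminin-321 in every library, at 2.53 ± 0.184 FPKM with PBS and 2.53 ± 0.295 FPKM with rhTR11B (SD, n = 3). These levels rest on the length of 11324 bases behind the authors' FPKM. That length exceeds the longest protein-coding LAMA3 transcript of GENCODE 29 (10661 bases), and which exons it holds is not given. Per kilobase of the shorter transcript alone (5671 bases in GENCODE 29), LAMA3 would stand at 5.04 with PBS and 5.05 with rhTR11B. These are RNA levels, and the trimers themselves were not measured.

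The ratio of 2 chains within a library does not depend on library scaling. LAMA3 stood at 0.0606, 0.0624 and 0.0605 of LAMA5 per length with PBS and at 0.0519, 0.0436 and 0.0512 with rhTR11B. The rhTR11B ratios all lay below the PBS ratios, by 0.33 on the log2 scale (two-sided exact permutation p = 0.1, adjusted over 4 ratios 0.2, where 0.1 is the smallest p that 3 against 3 libraries allow). LAMB3 relative to LAMB1 was 0.258 ± 0.0157 with PBS and 0.291 ± 0.0122 with rhTR11B, again without overlap (log2 difference 0.17, exact permutation p = 0.1, adjusted 0.2; n = 3). LAMB2 to LAMB1 and LAMB3 to LAMB2 overlapped between the groups (log2 differences 0.10 and 0.07, exact permutation p = 0.3 for both). No ratio could pass 0.05 with this number of libraries.

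The chains' level followed the position of the libraries on the first principal component. The mean of the 6 listed chains, as log2 CPM centred over the libraries, was -0.21, -0.13 and -0.06 in PBS replicates 2, 3 and 1 and 0.01, 0.09 and 0.30 in rhTR11B replicates 1, 2 and 3. That is the same order as on the component, within the groups as well as between them. LAMA5, LAMB2 and LAMC1 each followed this order. LAMB1 and LAMB3 followed it with rhTR11B but not among the PBS libraries, where LAMB1 was lowest in replicate 3 (-0.14) and LAMB3 highest in replicate 3 (-0.14). LAMA3 departed from it, with 0.11 in PBS replicate 1 and -0.14 in rhTR11B replicate 2. The mitochondrial share was highest and the ribosomal protein share lowest in rhTR11B replicate 3, where all 6 listed chains, LAMA3 included, were highest too. The part of this shared variation in the chains' difference was not tested.

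**Figure D3:**
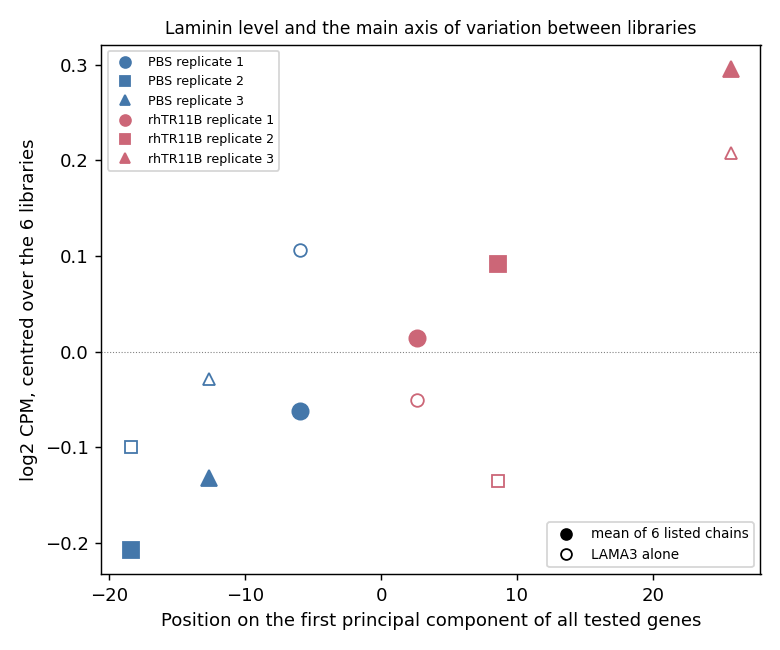
Mean of the 6 listed chains (filled) and LAMA3 alone (open), as log2 CPM centred over the 6 libraries, against each library's position on the first principal component of all tested genes (blue PBS, red rhTR11B; circle, square and triangle for replicates 1, 2 and 3). The filled points climb from -0.21 in PBS replicate 2 to 0.30 in rhTR11B replicate 3 along the component, and the open points do not.

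Laminin transcripts are long, with lengths of 4532 bases (LAMB3) to 11573 bases (LAMA5) behind the FPKM of the listed chains, and a median of 3981 over all tested genes. Among 5080 tested genes of at least 5000 bases, a limit chosen after the values were seen, 3.50% were called higher and the median log2 fold change was 0.02. Among shorter genes 2.57% were called higher and the median was -0.02. Genes called lower made up 0.217% of the longer and 0.954% of the shorter genes. The log2 fold change was above 0 for 56% of the longer and 46.5% of the shorter genes. With offsets for gene length, added after the data were seen, LAMA5, LAMB2, LAMB3 and LAMC1 passed again, with log2 fold changes of 0.30, 0.32, 0.40 and 0.24.

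The nearest genes in pattern were found by the root mean square difference between their centred log2 CPM over the 6 libraries and the mean of the listed chains, among 9394 other genes of at least 10 CPM. They were LY6G5B (0.0122), SGSH (0.0142), PDIA5 (0.0142), CTSB (0.0145) and ITGA3 (0.0149), all in log2 units. SGSH encodes a lysosomal sulfatase, PDIA5 a protein disulfide isomerase of the endoplasmic reticulum, CTSB the protease cathepsin B and ITGA3 a laminin receptor chain. Of the chains themselves LAMC1 (0.0426) and LAMB1 (0.0439) lay nearest to their mean, with 181 and 196 genes nearer still, and LAMA3 (0.138) lay farthest, with 2667 genes nearer.

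Of 13 laminin receptor genes, all tested, 7 rose and none fell, with a median log2 fold change of 0.29. Over all tested genes 2.92% were called higher and 0.678% lower. The 6 with the smallest p were SDC1, BCAM, ITGA1, CD151, ITGA3 and ITGA6. ITGA3 and ITGA6 pair with ITGB1 in the main epithelial receptors of laminin-332 and laminin-511. ITGA3 went from 855 ± 41.4 to 1046 ± 102 CPM (1.22-fold, edgeR adjusted p = 0.0356) and ITGA6 from 297 ± 11.2 to 347 ± 16.9 CPM (1.17-fold, adjusted p = 0.0479). ITGB1 itself had 1233 ± 14.2 and 1423 ± 92.4 CPM and did not pass (adjusted p = 0.0711). CD151, a tetraspanin that binds these integrins, rose 1.23-fold (adjusted p = 0.0324). BCAM, an immunoglobulin-family receptor of the LAMA5 chain, rose from 8.05 ± 0.528 to 11.9 ± 2.30 CPM (1.48-fold, adjusted p = 0.0249), and the heparan sulfate proteoglycan SDC1 rose 1.27-fold (adjusted p = 0.0180). ITGA1, whose integrin binds collagens as well as laminins, rose 1.33-fold (adjusted p = 0.0303). The dystroglycan gene DAG1 (320 ± 6.27 and 359 ± 27.3 CPM, adjusted p = 0.117) and ITGA2 (adjusted p = 0.101) did not pass. ITGB4, which pairs with ITGA6 in hemidesmosomes, was low at 2.84 and 4.05 CPM (adjusted p = 0.108). Without PBS replicate 2 or 3, 0 receptors passed edgeR's test, with 10 and 11 at an unadjusted p under 0.05. There were 2 without PBS replicate 1 and 4 without rhTR11B replicate 3.

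**Figure D4:**
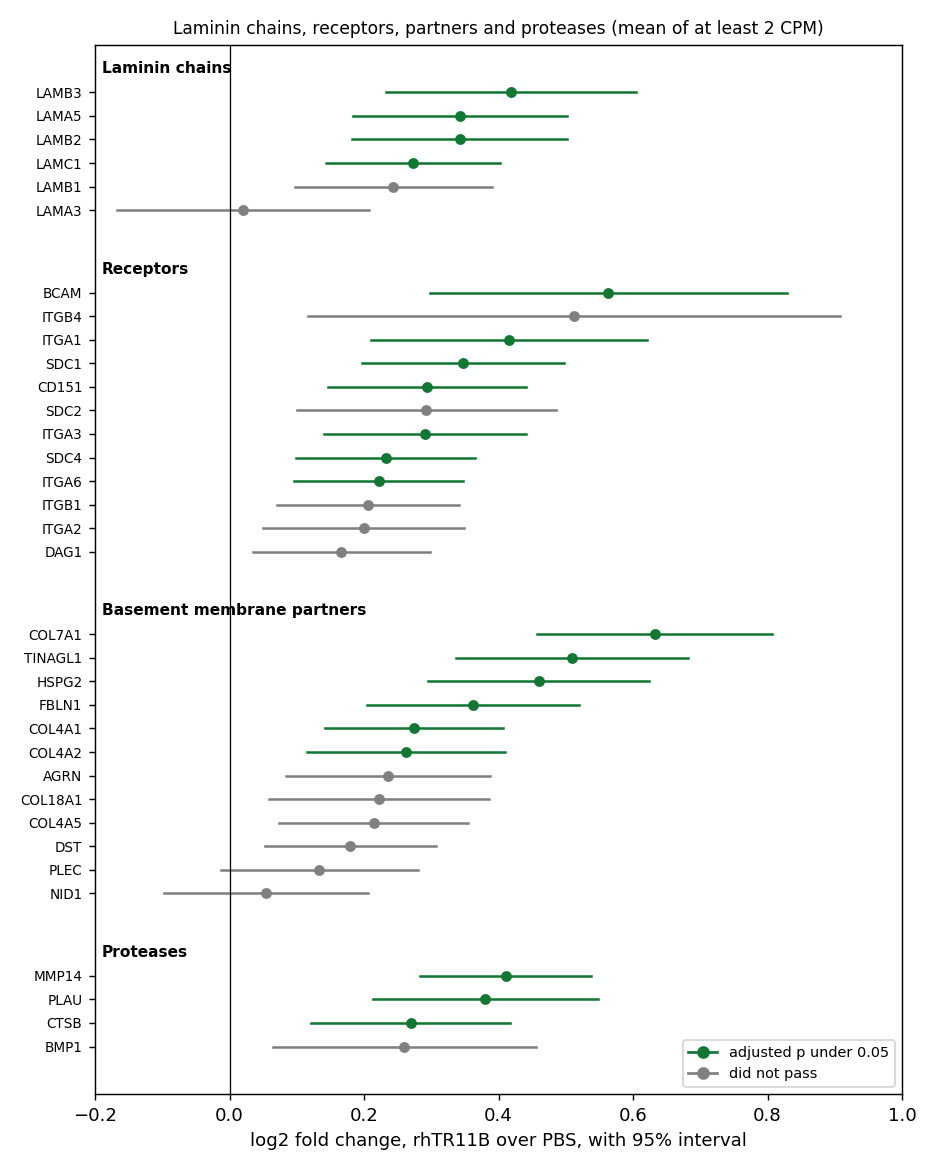
Log2 fold change of rhTR11B over PBS with its 95% interval for laminin chains, receptors, basement membrane partners and proteases with a mean of at least 2 CPM (green, edgeR adjusted p under 0.05; grey, did not pass). Point estimates of all genes drawn lie above 0, and the intervals of LAMA3, NID1 and PLEC reach below it.

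Of 20 basement membrane partners in the table, 15 were tested, 6 rose and none fell, with a median of 0.26. The shares over all tested genes were 2.92% called higher and 0.678% called lower. COL7A1, the collagen of anchoring fibrils that bind laminin-332, went from 91.6 ± 12.8 to 142 ± 11.7 CPM (1.55-fold, edgeR adjusted p = 0.00115). TINAGL1, a matricellular protein, rose from 26.0 ± 1.54 to 37.0 ± 3.87 CPM (adjusted p = 0.00461) and the heparan sulfate proteoglycan HSPG2 (perlecan) from 122 ± 10.1 to 168 ± 19.3 CPM (adjusted p = 0.00561). FBLN1 (fibulin) rose 1.29-fold, and the neighbouring collagen IV genes COL4A1 and COL4A2, whose chains form the network beside laminin, rose 1.21-fold and 1.20-fold (adjusted p = 0.0187, 0.0277 and 0.0472). Agrin (AGRN, 1.18-fold, adjusted p = 0.0681), COL18A1 (1.17-fold, 0.0947) and the hemidesmosome linker PLEC (1.10-fold, 0.250) did not pass. NID1, named after its values were seen because nidogen links laminin to collagen IV, had 156 and 162 CPM (log2 fold change 0.05, adjusted p = 0.690). Without PBS replicate 2 or 3, 1 partner passed in each fit; COL7A1 passed in all 6 fits that left out a library.

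Of 12 listed proteases in the table that cut laminin chains or activate those that do, 7 were tested, 3 rose and none fell (median 0.38). Among all tested genes 2.92% were called higher and 0.678% lower. MMP14, a membrane-bound metalloproteinase, rose 1.33-fold (edgeR adjusted p = 0.00264), the urokinase gene PLAU 1.30-fold (adjusted p = 0.0196) and CTSB 1.21-fold (adjusted p = 0.0438). BMP1, a metalloproteinase that processes matrix precursors, stood at 1.20-fold (adjusted p = 0.10), and PLAT and TLL2 had means below 1 CPM in both groups; none of these 3 passed. Without PBS replicate 2, 1 of these proteases passed, and without PBS replicate 3, 0 passed, with 4 at an unadjusted p under 0.05. Of 12 tested enzymes that build the laminin-binding glycan of dystroglycan, none passed in edgeR (0 calls), although 4 had an unadjusted p under 0.05; the DESeq2 Wald test gave 2 calls, both higher. Their median was 0.11. POMT1 stood at 1.18-fold (adjusted p = 0.0547), and POMGNT1 at 1.05-fold (adjusted p = 0.508). Of 4 tested relatives that share the laminin N-terminal domain, the guidance factor NTN1 rose 1.73-fold, from 3.37 ± 0.910 to 5.84 ± 1.14 CPM (adjusted p = 0.0335). NTN1 did not pass without PBS replicate 2, PBS replicate 3 or rhTR11B replicate 2 (log2 fold change 0.59, 0.94 and 0.64, edgeR adjusted p = 0.180, 0.130 and 0.0779). NTN4, NTNG1 and NTN5 did not pass (adjusted p = 0.809, 0.527 and 0.827).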

How the data were processed

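The authors' deposited tables hold raw read counts and FPKM per gene symbol for 6 RNA sequencing libraries, 3 per group. Per the submitters' processing notes fastp, HISAT, HTSeq, R 3.2.0 and DESeq2 were used on GRCh38; no source used here gives the role of each, the annotation or the strand setting. Each deposited FPKM value equals its count over gene length and library total (100% of values, relative tolerance 0.001), which gave the gene lengths. From the counts, edgeR 4.0.16 in R 4.3.3 was run with filterByExpr (minimum count 10), TMM scaling, a model with the group alone and the quasi-likelihood F-test, with Benjamini-Hochberg adjustment over 13567 genes. The SE is the log2 fold change over the square root of F. Precision is set by the spread between libraries (common biological coefficient of variation 0.0656) at 36315751 to 38148838 counts. For library pairs of a group, chi-square divided by its degrees of freedom was at least 5.13, where sampling noise alone gives about 1, so none was merged. The step was tested on simulated data with folds larger than those of the called listed chains, so changes of their size were not covered.

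The members and lists were chosen with earlier results of these data known. Named genes are all laminin chains in the table, the called members of each list by smallest p up to 6, its uncalled members by highest CPM up to 3, and the 5 nearest genes in pattern; ITGB4 and NID1 were added after their values were seen. Planned ratios that need LAMA4 were not made. Some genes that the rule names are not reported here. Alternatives were other scalings, filters and tests (limma 3.58.1, DESeq2 1.42.0), FPKM with pseudocounts of 1 and 0.1, the replicate block and leaving out each library; length offsets and the shorter LAMA3 transcript were added. Promoters were matched by symbol for 9 windows of 7 chains.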

Additional observations from a re-analysis of the deposited data

How the results depend on the processing

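The 4 listed chains called higher were called with DESeq2 size factors, library size alone, limma-voom, a mean of at least 5 CPM, length offsets and no mitochondrially encoded genes, and LAMB1 joined them with the DESeq2 Wald test, no low-count filter and the replicate block. With limma on FPKM (pseudocount 1, 0.1 and 1 with no filter) 0, 0 and 0 listed chains passed, 0, 0 and 0 receptors, 2, 2 and 0 basement membrane partners and 1, 1 and 0 proteases, where 83, 86 and 0 genes were called in all (2902, 2899 and 3073 at an unadjusted p under 0.05). All tested genes gave 488 calls, and 1099 with the Wald test, 1423 with no low-count filter, 231 at a mean of at least 5 CPM and 1026 with the replicate block. Higher genes made up 81.1% of calls and 67.3% with the Wald test, 66.1% with no filter. At a mean of at least 5 CPM 4 receptors passed. With the Wald test 10 partners passed, and 2 glycosylation enzymes passed with that test, with no filter and with the replicate block. LAMA3 levels were 5.04 (PBS) and 5.05 (rhTR11B) per kilobase of the shorter transcript.

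With a library left out, counts ran from 12 to 1330 for all genes, 0 to 5 for listed chains, 0 to 8 for receptors, 1 to 8 for partners, 0 to 4 for proteases and 0 to 2 for glycosylation enzymes. The log2 ratio of LAMA3 to LAMA5 ran from -0.37 to -0.25, LAMB3 to LAMB1 from 0.13 to 0.22, LAMB2 to LAMB1 from 0.04 to 0.15 and LAMB3 to LAMB2 from 0.02 to 0.10. The sign turned only among genes that did not pass. LAMA3 had -0.00051 and -0.0016 with limma on FPKM (pseudocount 1, with or without the filter, and 0.1), -0.017 with length offsets, -0.03 without PBS replicate 2 and -0.088 without rhTR11B replicate 3 (range with a library left out -0.088 to 0.091). LAMA2 had -0.010 without PBS replicate 1 (up to 0.21 with another left out). TLL2 had -0.13, -0.12 and -0.27 without PBS replicates 2 and 3 and rhTR11B replicate 1, and -0.0040 with length offsets (up to 0.36). NTN4 had -0.23 (up to 0.31) and NTN5 -0.66 (up to 0.61) without rhTR11B replicate 3, and NTN5 had -0.040 with limma-voom. The cause of these moves was not tested.

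Deviations of same-numbered libraries from their group means correlated at -0.10, 0.05 and -0.01, and those of differently numbered libraries at -0.10 to 0.11. With 3 libraries per group these correlations cannot settle whether same-numbered libraries were paired. With the replicate block 5 listed chains, 7 receptors, 7 partners and 4 proteases passed. The tested chains other than LAMA2 had 672 to 23517 counts in a library; LAMA1 and LAMC3 were too low to test.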
